A study of Drosophila melanogaster with 4 samples.

Results

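The Cpr genes of Drosophila melanogaster encode structural proteins of the cuticle, the chitin-based shell of the fly. Members were taken as every gene whose symbol in the reference table starts with Cpr followed by a digit, where the number and letter give the cytological band. The family below means these members, and genes under other names were left out whatever their protein domain. This rule found 70 genes, and 59 of them had reads in at least 1 library, among 12073 gene IDs with reads. The other 11 members (Cpr11B, Cpr35B, Cpr49Ad, Cpr57A, Cpr64Aa, Cpr64Ab, Cpr64Ac, Cpr64Ad, Cpr65Ax1, Cpr65Ax2 and Cpr65Ec) were listed in none of the tables. They enter below only in the totals of members.

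The libraries came from whole adult females aged 1 to 3 days, with RNA extracted from flies in groups of 5 and poly-A selected. Wild type flies were w1118, and mutants had the genotype kdm5k6801/10424 in that w1118 background. Kdm5 is a chromatin enzyme that removes methyl groups from histone H3. Flies of both genotypes were fed for 6 hours, either on 5% sucrose alone (control) or on 5% sucrose containing 20 mM paraquat, a redox-cycling herbicide that makes superoxide in cells. Each of the 4 groups had 1 library, so replicate error is unknown and p-values are not given.

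Cpr proteins share the Rebers-Riddiford domain, named for its consensus and known to bind chitin. They are made by the epidermis and by other cuticle-lining cells such as those of the trachea, and are secreted into the forming cuticle. Many insect Cpr genes are used at 1 stage or in 1 body region, and their expression is tied to the moulting hormone cycle. Young adult flies still add inner layers of cuticle after eclosion. Related genes often lie side by side in the genome, which is why the band in the symbol also names a gene cluster.

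Levels are given as RPKM (reads per kilobase of gene length per 1 M library reads), as deposited by the authors. Higher and lower below mean a difference of 1 or more in log2(RPKM + 1), for a gene with 1 RPKM or more in one of the libraries. A fold is a plain RPKM ratio, followed by its exact Clopper-Pearson 95% interval, which covers counting error only. Libraries held between 27.9 and 29.1 M uniquely mapped reads. Kdm5 itself was at 43.4 RPKM in wild type control, 22.5 in wild type with paraquat, 2.06 in mutant control and 2.03 in mutant with paraquat. Among tissue markers, 16 of 18 muscle genes and 14 of 16 female germline genes had a mean of at least 1 RPKM over the 4 libraries.

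A few members carried most Cpr reads of these adults. Cpr49Ae, Cpr92F and Cpr100A together took 73.1% of the family's reads in wild type control, 77.1% in wild type with paraquat, 65.5% in the mutant control and 71.5% in the mutant with paraquat. Of the 70 members 27 reached 1 RPKM in at least 1 library, and 24 had a mean of at least 1 RPKM over the 4 libraries. A further 16 had more than 3 reads in some library but stayed under 1 RPKM in all, and 16 never had more than 3 reads, the floor used here for absence in a library. That floor corresponds to 0.103 to 0.107 RPKM for a gene of 1 kb.

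Cpr49Ae was the most abundant member in each library. It stood at 137 RPKM in wild type control (135 to 140 from counting), 498 in wild type with paraquat, 252 in the mutant control and 290 in the mutant with paraquat. Its reads alone made up 47.3%, 44.9%, 36.6% and 44.5% of the family's reads in that order of libraries. Cpr92F, second by reads, was at 46.4, 211, 94.4 and 95.5 RPKM. Cpr100A had 39.5, 209, 162 and 120 RPKM, and Cpr49Ab had 46.4, 137, 105 and 111. For all of these genes the wild type control was the lowest library and wild type with paraquat the highest.

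**Figure D1:**
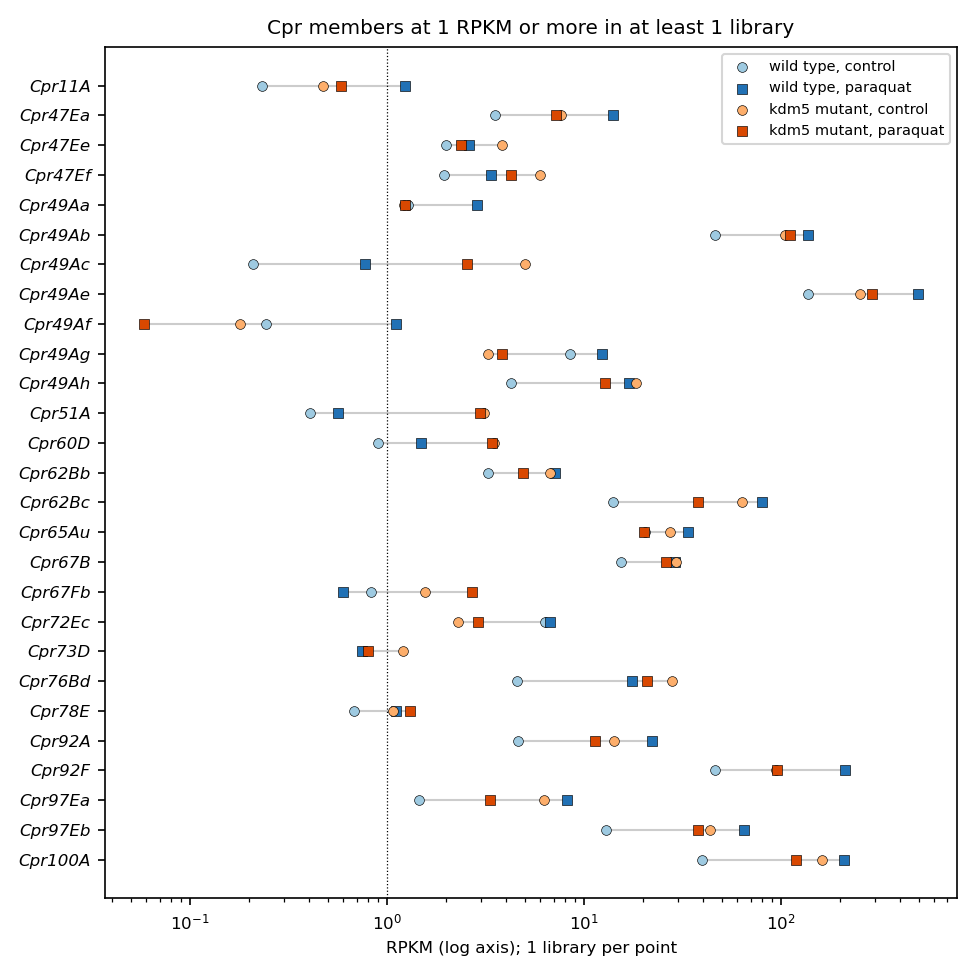
RPKM on a log axis of the 27 Cpr members that reached 1 RPKM in at least 1 library, 1 point per library, with a grey line over each member's range and a dotted line at 1 RPKM. The wild type control (pale blue circles) is the leftmost point for most members, and Cpr49Ae reaches 498 RPKM in wild type with paraquat (dark blue squares).

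Per length, the order of the members depended on which length was used. For 53 of 59 members the length in the tables came within 5% of the full gene with its introns, and for 7 within 5% of the summed BDGP6 exons. Recomputed per kilobase of summed exons, Cpr49Ae stood at 335, 1214, 616 and 708 in the library order above. Next came Cpr92F with 81.1, 369, 165 and 167, Cpr100A with 47.7, 252, 195 and 145 and Cpr49Ab with 52.2, 154, 118 and 125. Cpr49Ae was above Cpr92F in all 4 libraries with counting intervals apart, whereas Cpr92F was above Cpr100A in 3 libraries and below it in the mutant control. Lower in the order, Cpr92A, Cpr47Ea and Cpr49Ah had mean levels of 16.9, 16.1 and 15.9 on the exon scale. These levels did not separate, since each was above the next in only 3 and 2 libraries.

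The clusters differed widely in how many of their genes reached a mean of 1 RPKM. Cluster 49A, on chromosome arm 2R, had 6 of 8 members at a mean of 1 RPKM or more and took 54.2%, 50.1%, 43.7% and 51.5% of the family's reads. Cluster 47E, also on 2R, had 3 of 7, and clusters 62B and 97E had 2 of 3 and 2 of 2. In cluster 65A only Cpr65Au of 7 members passed this level, at 20.4, 33.5, 27.4 and 20.2 RPKM, and 0 of 3 members of 65E and 0 of 3 of 78C did. All 5 members on arm 3R passed it, against 11 of 21 on 2R, 8 of 35 on 3L, 0 of 5 on 2L and 0 of 4 on X. These totals include members listed in no library, which may not be silent. Listed were 7 of 8 members of 49A, 5 of 7 of 65A and 2 of 3 of 65E. Genes of these bands under other names were not counted. Among them was Acp65Aa, at 181, 662, 213 and 234 RPKM in the library order above.

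**Figure D2:**
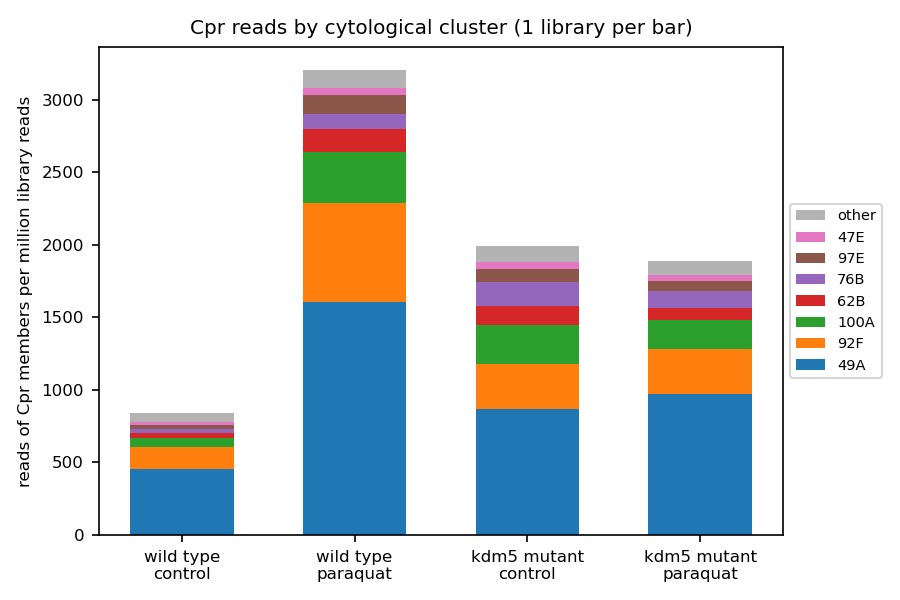
Reads of Cpr members per 1 M library reads, stacked by cytological cluster, with 1 library per bar and all other bands in grey. The wild type control bar is the lowest at 839, wild type with paraquat is the highest at 3204, and cluster 49A is the largest block in each bar.

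Neighbours within a cluster stood at very different levels. In 49A, on the exon scale, Cpr49Ae reached 1214 in wild type with paraquat while its neighbour Cpr49Af, had 4, 19, 3 and 1 reads. Cpr49Aa was at 1.28, 2.85, 1.22 and 1.23 RPKM beside Cpr49Ab at 46.4 to 137. In 47E, Cpr47Ea (BDGP6 2R, 11251751 to 11253398, minus strand) had 163 to 666 reads, while Cpr47Eb next to it had 1 or 2 in each library. Cpr47Ea shares exon sequence with the odorant receptor gene Or47a, so part of its reads may belong to that gene. The same holds for Cpr65Au and Cpr67Fb, whose exons overlap antisense RNA genes, because it is not given whether counting used strand.

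**Figure D3:**
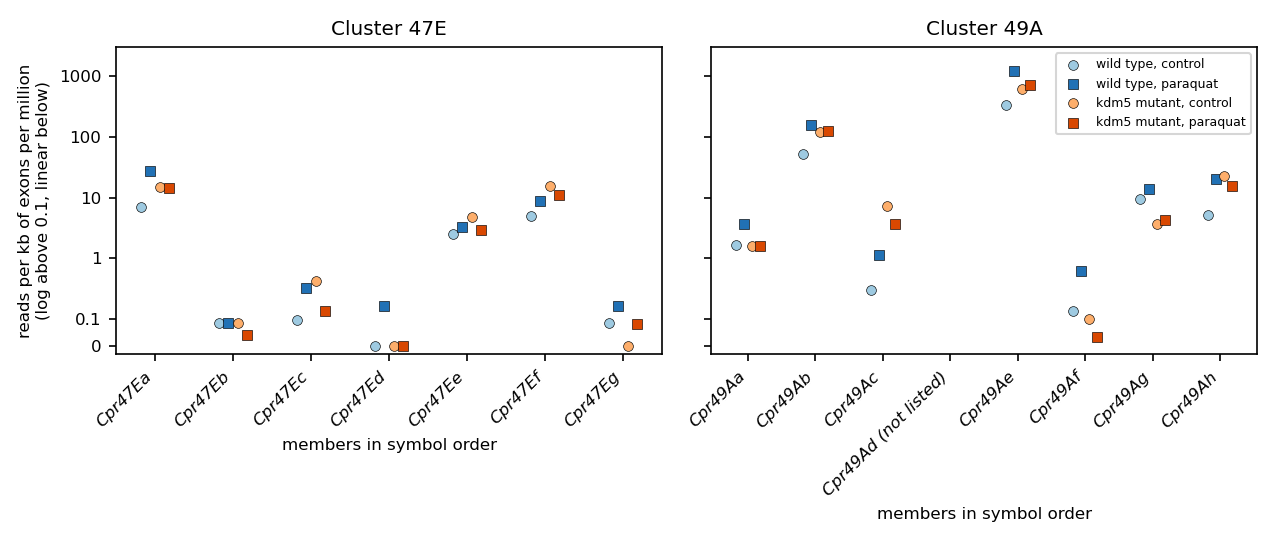
Reads per kilobase of summed exons per 1 M reads for each member of clusters 47E and 49A in symbol order, 1 point per library, on an axis that is logarithmic above 0.1 and linear below. Points at 0 are libraries that list no reads, and Cpr49Ad is not listed in any. Within 49A levels run from near 0 for Cpr49Af to 1214 for Cpr49Ae.

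The wild type pair of libraries addressed the response to oxidative stress in flies without the kdm5 mutation. With paraquat 11 of 70 members were higher and 0 were lower, where 23 members reached 1 RPKM in either library and 12 of these were neither. Over all 8429 genes tested 5.21% were higher and 10.4% lower by the same rule. Summed over the family, Cpr reads made up 0.0839% of the control library and 0.320% of the paraquat library, a 3.82-fold difference (3.76 to 3.87). In whole-fly RNA, a change in the number of epidermal cells and a change in RNA per cell cannot be told apart.

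Cpr62Bc (BDGP6 3L, 1840281 to 1842084, minus strand) had the widest difference, from 14.0 RPKM without to 79.7 with paraquat, or 5.69-fold (5.25 to 6.17). Cpr100A at 39.5 and 209 was 5.28-fold higher (5.03 to 5.56), and Cpr97Eb at 12.9 and 64.8 was 5.01-fold higher (4.56 to 5.51). These genes lie on different chromosome arms, 3L for the first and 3R for the others. Cpr92F was higher by 2.16 on the log2 scale, Cpr92A by 2.04 and Cpr97Ea by 1.91. Both members of cluster 97E were therefore called, with Cpr97Ea at 1.45 and 8.20 RPKM.

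Within cluster 49A, Cpr49Ae was 3.62-fold higher (3.55 to 3.70), Cpr49Ah 3.98-fold (3.31 to 4.81) and Cpr49Ab 2.95-fold (2.76 to 3.14). Other members of the same cluster did not reach the rule: Cpr49Ag was at 8.47 and 12.4 RPKM (0.50 on the log2 scale) and Cpr49Aa differed by 0.75. Cpr76Bd was at 4.57 and 17.5 RPKM and Cpr47Ea at 3.54 and 14.0, with differences of 1.73 and 1.72. Just short of the rule stood Cpr62Bb (0.93) and Cpr67B (0.86). At the other end, Cpr72Ec, a member known from the corneal lens of the eye, was at 6.33 and 6.74 RPKM, a fold of 1.06 (0.896 to 1.27).

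The 24 members with a mean of at least 1 RPKM over the 4 libraries had a median difference of 0.90, with quartiles of 0.47 and 1.87. That mean includes the libraries compared. Cpr49Ac, Cpr51A and Cpr67Fb, under 1 RPKM in both wild type libraries, reached it only through the mutant libraries. Cpr78E, at 0.677 and 1.11 RPKM in wild type and 1.07 and 1.30 in the mutant, also needed the mutant libraries to reach it. The 8228 genes at the same level had a median of −0.31, with quartiles of −0.71 and 0.33. Of the 24 members 23 were on the positive side, Cpr67Fb at −0.19 being the exception, against 35.9% of the genes. Median-ratio and upper-quartile scaling moved the median gene by 0.16 and 0.26 and left 13 members higher and 0 lower in each case, while of all genes past the rule the share that was higher went from 33.3% to 58.5% and 72.1%.

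The wild type control was the lowest library for 19 of these 24 members, and for 27.2% of all genes at that level. None of the 24 had its highest value there, whereas 54.1% of genes did. A comparison added after the values were known put the mutant control in its place, which mixes genotype with treatment. Against that baseline 3 members were higher in wild type with paraquat (Cpr49Ag, Cpr72Ec and Cpr92F) and 2 were lower (Cpr49Ac and Cpr51A), where 3.22% of 8500 genes were higher and 3.12% lower. What belongs to that control group and what to its single library cannot be told apart.

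The mutant pair of libraries addressed the paraquat response when Kdm5 is reduced. Here 0 of 70 members were higher and 0 lower, with 25 at 1 RPKM or more, where 0.712% of 8288 genes were higher and 0.603% lower. No replicate test stands behind these counts. The family took 0.200% of reads in the mutant control and 0.189% with paraquat, a ratio of 0.946 (0.935 to 0.957).

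Smaller shifts went both ways. Cpr49Ac stood at 5.04 RPKM without paraquat and 2.54 with it, Cpr97Ea at 6.25 and 3.32 and Cpr62Bc at 63.5 and 37.9, with differences of −0.77, −0.75 and −0.73 that did not reach the rule. Cpr100A (162 and 120) and Cpr76Bd (28.0 and 21.0) lay on the same side at −0.43 and −0.40. The most abundant member, Cpr49Ae, was instead at 252 and 290 (1.15-fold, 1.13 to 1.17), and Cpr92F was at 94.4 and 95.5, a ratio of 1.01 (0.982 to 1.04). Cpr67Fb had the furthest positive difference, 0.53, from 23 and 41 reads. Over the 24 members the median was −0.17, against −0.04 for all genes at that level, and 8 were on the positive side.

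**Figure D4:**
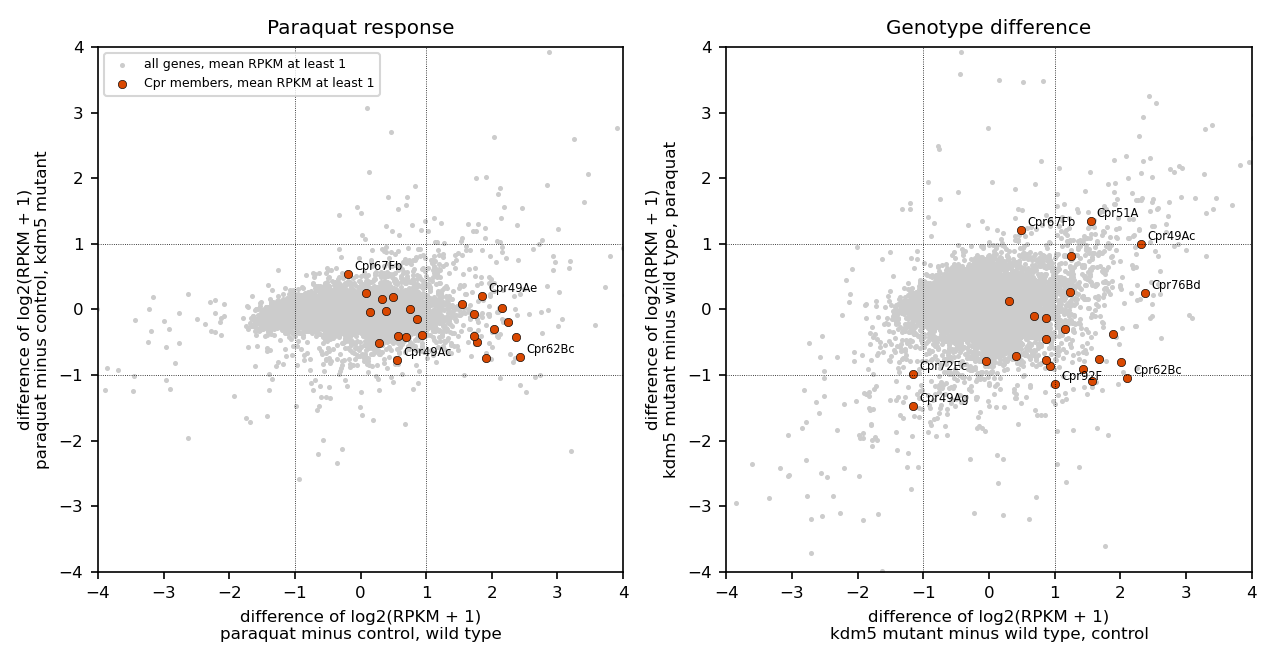
Differences of log2(RPKM + 1) of genes with a mean of at least 1 RPKM, with Cpr members in orange over all genes in grey, and dotted lines at 1 and −1. Left, the paraquat response in the mutant against that in wild type. Right, the genotype difference under paraquat against that in control flies. The axes stop at 4 on each side and leave out 9 and 18 genes. On the left, 11 members lie beyond 1 along the wild type axis while all stay within 1 of 0 along the mutant axis.

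The pair of control libraries addressed the effect of the kdm5 mutation in unstressed flies. In the mutant 13 of 70 members were higher and 2 were lower, 25 having reached 1 RPKM, where 6.55% of 8364 genes were higher and 5.75% lower. The family's reads were 2.38-fold higher (2.34 to 2.41). The wild type control library enters here as it did in the wild type paraquat comparison, which makes these results dependent on each other.

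Cpr76Bd (BDGP6 3L, 19532743 to 19538289, plus strand) had the largest difference, 2.38 on the log2 scale, at 4.57 RPKM in wild type and 28.0 in the mutant (6.14-fold, 5.67 to 6.65). Its share of the family's reads was 3.02% and 3.03% in the wild type libraries and 7.79% and 6.16% in the mutant libraries. Its neighbours in cluster 76B were also sparse in wild type control and more frequent in the mutant control, Cpr76Bc with 10 and 125 reads, Cpr76Bb with 1 and 11 and Cpr76Ba with 0 and 4. These neighbours remained under 1 RPKM and were not called. Summed over the 4 members, the cluster was 6.23-fold higher (5.76 to 6.75), against 1.92-fold (1.88 to 1.96) for cluster 49A. Each sum mostly follows 1 gene. In the mutant control Cpr76Bd had 4401 of the 4541 reads of 76B, and Cpr49Ae 20675 of the 24680 of 49A. Ratios of single members of 49A ran from 0.382 for Cpr49Ag to 24.2 for Cpr49Ac.

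Cpr49Ac was at 0.208 RPKM in the wild type control, from 18 reads, and at 5.04 in the mutant control, from 442 reads, a fold of 24.2 (15.2 to 41.3). Cpr51A was at 0.405 and 3.10 (7.67-fold, 5.23 to 11.6), and Cpr60D at 0.901 and 3.49 (3.88-fold, 2.13 to 7.55). Cpr47Ef was at 1.95 and 5.94. In wild type with paraquat, against the same control library, Cpr49Ac was 3.70-fold (2.18 to 6.61) above control and Cpr47Ef was at 3.37 RPKM, 1.73-fold above it, both without reaching the rule. The other 9 higher members were Cpr49Ab, Cpr49Ah, Cpr62Bc, Cpr92A, Cpr92F, Cpr97Ea, Cpr97Eb, Cpr100A and Cpr76Bd. Among them Cpr62Bc was at 14.0 and 63.5 RPKM, Cpr100A at 39.5 and 162 and Cpr92F, just inside the rule at 1.01, at 46.4 and 94.4.

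On the lower side stood Cpr49Ag, at 8.47 RPKM in wild type and 3.24 in the mutant (2.62-fold lower, 1.96 to 3.52), and the lens gene Cpr72Ec, at 6.33 and 2.29 (2.76-fold lower, 2.17 to 3.53). Cpr66D, another protein known from the fly's corneal lens, had 13 and 78 reads and did not reach 1 RPKM. Neither lower call held under median-ratio scaling over genes with a mean of at least 1 RPKM, where 17 members were higher and 0 lower. With that scaling 9.31% of all genes were higher and 2.98% lower. Over the 24 members of sufficient mean level the median difference was 1.08, against −0.19 for all genes, and 21 were on the positive side. These include Cpr49Ac, Cpr51A and Cpr67Fb, which were under 1 RPKM in both wild type libraries and reached that mean through the mutant libraries. Median-ratio and upper-quartile scaling moved the median gene by 0.10 and 0.13, and 14 and 16 members were then higher and 2 lower. Of all genes past the rule 53.3% were higher, and 64.9% and 68.4% with these scalings.

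Set against wild type with paraquat instead of the wild type control, the mutant control had 2 members higher (Cpr49Ac and Cpr51A) and 3 lower (Cpr49Ag, Cpr72Ec and Cpr92F). Of 8500 genes 3.12% were higher and 3.22% lower against that baseline. Cpr76Bd (28.0 RPKM in the mutant control and 17.5 in wild type with paraquat), Cpr60D (3.49 and 1.49), Cpr47Ef (5.94 and 3.37) and Cpr49Ah (18.4 and 16.8) were also above wild type there without reaching the rule. Cpr49Ab, Cpr62Bc, Cpr92A, Cpr97Ea, Cpr97Eb and Cpr100A were below wild type there, also without reaching it. Like Cpr92F, these members had been called higher against the wild type control.

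The pair of paraquat libraries addressed the effect of the mutation during stress. Of 70 members 3 were higher in the mutant and 4 lower, 26 having reached 1 RPKM, where 2.3% of 8487 genes were higher and 2.7% lower. The family's reads were lower in the mutant, with a ratio of 0.589 (0.583 to 0.595). No library is shared with the comparison in control flies.

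Cpr51A was at 0.561 RPKM in wild type and 2.97 in the mutant (5.29-fold, 3.81 to 7.52), and was thus called higher in the mutant in both conditions. Cpr49Ac, at 0.77 and 2.54 RPKM, was at the edge of the rule and was not called with median-ratio or upper-quartile scaling. Cpr67Fb was at 0.597 and 2.71, from 9 and 41 reads (4.53-fold, 2.17 to 10.6). Cpr49Ag was at 12.4 and 3.81 RPKM (3.25-fold lower, 2.53 to 4.23), lower in the mutant in both conditions. The lens gene Cpr72Ec, at 6.74 and 2.90, was just short of the rule at −0.99 and passed it with either scaling.

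Cpr92F was at 211 RPKM in wild type and 95.5 in the mutant (2.21-fold lower, 2.15 to 2.26), Cpr97Ea at 8.20 and 3.32 and Cpr62Bc at 79.7 and 37.9. These were higher in the mutant in control flies and lower in it under paraquat. Cpr49Ae was at 498 and 290 and Cpr100A at 209 and 120, with differences of −0.78 and −0.80 that did not reach the rule. Over the 24 members the median was −0.58, against 0.08 for all genes at that level. Median-ratio and upper-quartile scaling gave 2 members higher and 6 lower in each case, so that 25.0% of called members were higher against 42.9% as deposited. Of all genes past the rule 43.5% and 39.8% were higher with these scalings, against 46.0% as deposited.

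The difference of the paraquat responses, mutant minus wild type, was at or beyond −1 for 15 of 70 members and at or beyond 1 for 0, with 27 members at 1 RPKM. Of 8611 genes 6.18% were lower and 8.36% higher by this measure. It draws on all 4 libraries. Cpr62Bc was furthest at −3.16, followed by Cpr100A at −2.80, Cpr97Ea at −2.66 and Cpr97Eb at −2.43. Cpr49Ae, the most abundant member, was at −1.65. Cpr49Ag (−0.32), Cpr51A (−0.20) and Cpr72Ec (0.16) were near 0, the value of Cpr72Ec turning negative with upper-quartile scaling. Over the 24 members the median was −1.32, against 0.28 for all genes.

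Other genes of cuticle formation were examined by fixed lists. Only the symbol separates these genes from the Cpr members, so the structural list may hold genes with the same protein domain. Of 63 other structural cuticle genes (Ccp84A, Lcp, Tweedle and obstructor families among them) 41 had reads and 14 reached 1 RPKM in a wild type library. In wild type with paraquat 8 were higher and 0 lower, where 5.21% of all genes were higher and 10.4% lower. The adult cuticle gene Acp65Aa was at 181, 662, 213 and 234 RPKM in wild type control, wild type with paraquat, mutant control and mutant with paraquat. Acp1, also of the adult cuticle, was at 24.9, 124, 84.5 and 52.2. As for the Cpr members, 0 genes of this list were called in the mutant paraquat comparison, with 13 at 1 RPKM. In the mutant control 5 of 13 were higher, against 6.55% of all genes. Under paraquat 5 of 15 were lower in the mutant, against 2.7% of all genes.

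Of 15 genes for making and modifying chitin, 11 reached 1 RPKM in a wild type library and 10 in a control library. In wild type with paraquat 5 were higher, against 5.21% of all genes, and in the mutant control 2 were, against 6.55%. The chitin deacetylase genes verm (7.39, 35.4, 32.1 and 24.4 RPKM) and serp (5.34, 24.3, 23.2 and 17.9) were called in both. The chitin synthase gene kkv was at 0.875, 3.06, 2.59 and 1.92 and was called with paraquat in wild type. Among 17 chitinases and imaginal disc growth factors 11 and 12 reached 1 RPKM in these comparisons, and 3 were higher in each. Cht5, Cht6 and Cht7 differed by 1.15, 1.01 and 1.33 with paraquat in wild type, and by 0.82, 0.76 and 0.75 in the mutant control, where they did not reach the rule. Cht8, Idgf2 and Idgf5 differed by 1.05, 1.12 and 1.93 in the mutant control, and by −0.06, −0.33 and 0.02 with paraquat in wild type. Between the paraquat libraries 2 of 11 genes of this list were higher in the mutant and 0 lower. These were Idgf2 (1.40) and Idgf5 (1.23), where 2.3% of all genes were higher and 2.7% lower. Of 19 sclerotization and pigmentation genes 13 reached 1 RPKM in a wild type library and 4 were higher with paraquat in wild type. Among these 4 was ple, the tyrosine hydroxylase that feeds cuticle tanning, at 18.5 with paraquat against 7.0 in control. In the mutant libraries ple was at 21.3 and 14.9. Of 21 regulators of moulting 17 had reads, and 11 and 10 reached 1 RPKM in the wild type and the control pairs of libraries. In either comparison 0 were called. Of all genes 5.21% were higher and 10.4% lower in the first, and 6.55% and 5.75% in the second.

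Markers of other tissues moved in the same libraries. Of 18 muscle genes 16 reached 1 RPKM, and 13 were higher in wild type with paraquat and 6 in the mutant control. Of all genes 5.21% and 6.55% were higher in these comparisons. The summed level of the muscle genes was 3556, 10720, 7923 and 7356 RPKM in the library order above. The list for larval fat body and larval serum had 6 of 6 genes higher in both comparisons, with sums of 35.1, 163, 367 and 246 RPKM. Of 16 female germline genes 14 reached 1 RPKM, and 7 were lower with paraquat in wild type and 3 in the mutant control. Of all genes 10.4% and 5.75% were lower there. The germline sums were 919, 532, 653 and 679 RPKM. Eggshell genes, of which 10 of 17 had reads, summed to 7521, 2753, 3733 and 2052 RPKM. The part of these tissue markers in the Cpr values was not tested.

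**Figure D5:**
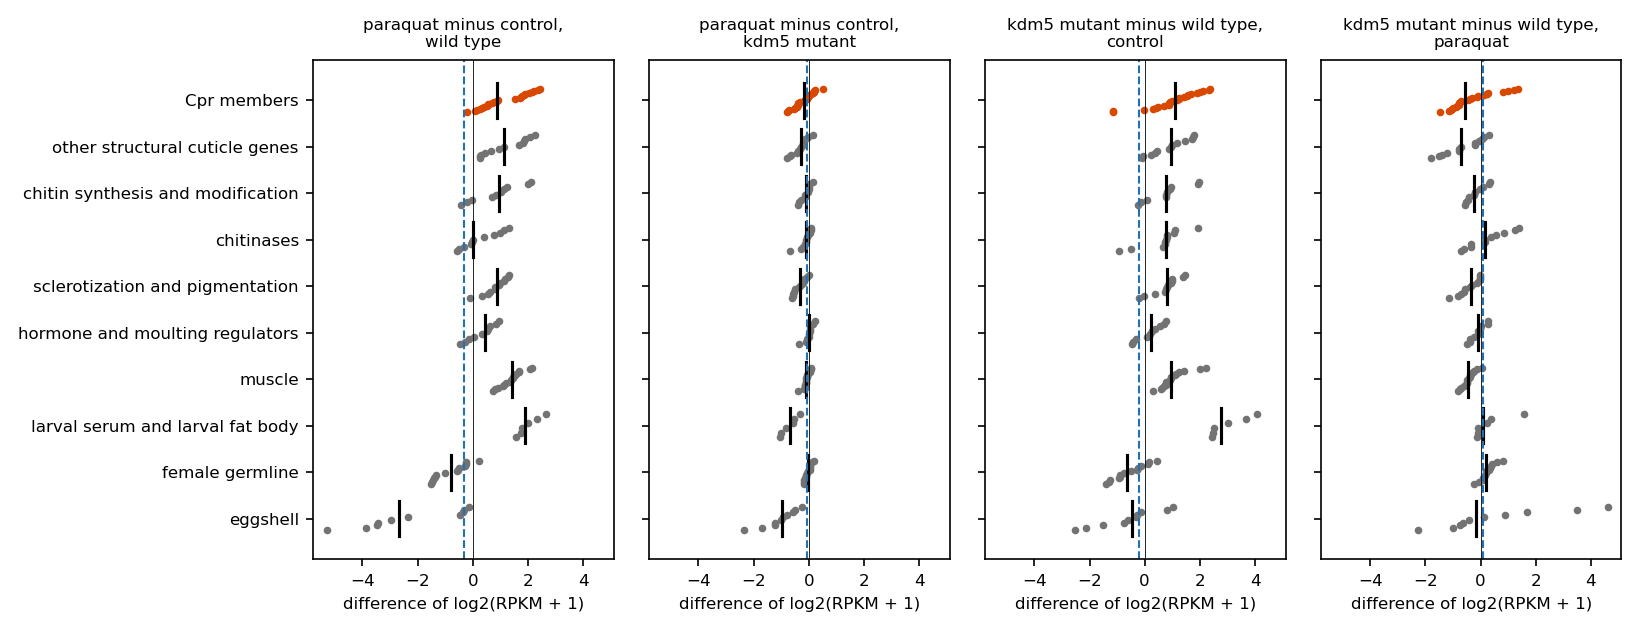
Differences of log2(RPKM + 1) in each comparison for the Cpr members and 9 other gene lists, 1 point per gene with a mean of at least 1 RPKM, with the list median as a black bar and the median of all genes as a dashed blue line. Cpr members have medians of 0.90, −0.17, 1.08 and −0.58 from left to right, and muscle and larval serum genes lie on the same side as the Cpr members in the outer left panel and in the control genotype panel.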

How the data were processed

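Poly-A RNA of whole female flies was sequenced in 4 groups of 1 library each. Each deposited table gives, per the file headers, a count of uniquely mapped reads, a gene length, the percent of that length covered and an RPKM value. The counts deposited by the authors are whole numbers that sum to the total each header gives. Deposited RPKM values equal reads over that length and total, differing from them by a relative 5.13e-07 at most. The coverage in percent was deposited by the authors and was not used for any difference. Cufflinks and dm3 are named in the submitters' processing notes. The aligner, the annotation release and the strand setting were not given in the sources used here.

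Tables leave out 665 to 834 of 12073 IDs, and these were set to 0 reads, which may not be why they are missing. Positions and summed exons come from Ensembl's BDGP6 annotation, whose build is later than dm3 and in which all 70 members have a position. Symbols matched 11667 IDs.

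All differences were taken on log2(RPKM + 1), a scale that shrinks those of weakly expressed genes. Members, lists and the rule for named genes were chosen with earlier results of these data known. Named members are the 12 highest, the 6 furthest on each side of each comparison at 5 RPKM, and every called member; others that open a cluster or were singled out after their values were seen are given by value only. Calculations used Python 3.11.15, pandas 2.3.3, NumPy 2.4.6 and SciPy 1.17.1. The size rule and intervals were run on simulated counts with counting error only, which cannot show how they behave under replicate spread. Unique mapping undercounts genes with close copies. As alternatives, the pseudocount was set to 0.1 or 5, the minimum was dropped or set to 5 RPKM, 2 scalings were applied, and reads were left undivided by length.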

Additional observations from a re-analysis of the deposited data

Results flagged for a closer look

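For 9 members the effect of one factor pointed in opposite directions at the levels of the other, with both counting intervals clear of no change and at least 1 side past the size rule. With 1 library per group the difference was not tested. The same rule was not applied to all genes, so no background stands beside this count. Paraquat was on the positive side in wild type and on the negative side in the mutant for Cpr62Bc (difference of responses −3.16), Cpr100A (−2.80), Cpr97Ea (−2.66), Cpr97Eb (−2.43), Cpr92A (−2.33), Cpr49Ah (−2.26) and Cpr76Bd (−2.14). The mutant was above wild type in control flies and below it under paraquat for the same members other than Cpr76Bd, and also for Cpr92F (−2.14) and Cpr49Ab (−1.46). Each of these values includes the wild type control, which was the lowest library for all 9.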

How the results depend on the processing

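Counts of called members stayed within 1.5 times under the 7 planned and 3 later settings except as follows. A pseudocount of 0.1 gave 7 members lower in the mutant under paraquat in place of 4 (4.23% in place of 2.7% of all genes). On the positive side of the difference of responses it gave 1 in place of 0 (11.6% in place of 8.36% of all genes). A pseudocount of 5 gave 6 higher and 0 lower in the mutant control (13 and 2 in the main values) and 0 higher and 1 lower under paraquat (3 and 4). Shares over all genes fell as well, from 6.55% to 2.99% higher and from 5.75% to 2.21% lower in the mutant control. Under paraquat these shares fell from 2.3% to 1.07% and from 2.7% to 1.33%. A minimum of 5 RPKM gave 0 higher under paraquat, with 2.22% of all genes higher in place of 2.3%. Median-ratio scaling over genes with a mean of at least 1 RPKM, added after seeing the data, gave 0 lower in the mutant control. Of all genes 2.98% were then lower in place of 5.75%. With the other baseline libraries, also added later, wild type with paraquat had 3 higher and 2 lower against the mutant control (3.22% and 3.12% of all genes). The mutant control had 2 higher against wild type with paraquat (3.12% of all genes). The cause of these changes was not tested. The 11 members higher with paraquat in wild type were called under all 10 settings that kept the baseline, as were 6 of the 13 higher in the mutant control and 11 of the 15 in the difference of responses. Of the 24 members with a mean of at least 1 RPKM, Cpr60D (mutant, paraquat against control) and Cpr49Aa (control flies, mutant against wild type) changed sign with some scalings, from −0.03 and −0.04. No paired analysis was possible because each group has 1 library, and for the same reason no library could be left out of a group. Depth limits the 16 members with at most 3 reads per library, for which a difference was not detectable.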
